A study of Mus musculus with 12 samples.

Results

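The genotype effect of arid4b∆ was compared between mouse embryonic stem cells directed to endoderm and to mesoderm. All 12 libraries of the series entered, 12 of 12, in 4 groups of 3: wild type (WT) endoderm, arid4b∆ endoderm, WT mesoderm and arid4b∆ mesoderm, all from the line CJ9 after 5 days of differentiation. The value of interest for a gene is the difference of genotype effects: its log2 fold change of arid4b∆ over WT in endoderm minus the same in mesoderm. Genes were chosen by that contrast in 1 fit of the 4 group means. The labels give no number of clones behind the arid4b∆ genotype and no factors used to direct the cells.

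Arid4b encodes a chromatin protein of the SIN3 histone deacetylase complexes. Endoderm and mesoderm both arise from the primitive streak, where Nodal, Wnt, BMP and FGF signals set the fate of cells, and high Nodal activity favours definitive endoderm. Lefty1 and Lefty2 are secreted inhibitors of Nodal and are themselves switched on by it, so they are widely used as a readout of that pathway. A gene can differ between lineages in its genotype effect in several ways. It can move in opposite directions, move in 1 lineage with little change in the other, move in both by unlike amounts, or be absent from 1 lineage so that no effect can be measured there.

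Libraries held 10352411 to 35664057 counts, of which the ribosomal precursor Rn45s took 79.6% to 82.4%, and 1949299 to 6678893 counts remained without it. Mir6236 and Lars2 took 49.7% to 69.5% of that remainder and stayed in the library sizes, which lowers the CPM of every other gene. Levels are CPM, counts scaled to the library size without Rn45s times a TMM scaling factor (0.7585 to 1.277 over the libraries). Library sizes were summed over the tested genes, and levels are not divided by gene length. In WT the labels matched their markers: Foxa2, a definitive endoderm factor, averaged 24.5 CPM in endoderm and 0.559 in mesoderm, and T (brachyury) averaged 46.5 in endoderm and 220 in mesoderm, so the endoderm cultures also held streak transcripts. Arid4b itself gave 41.1, 46.3, 42.1 and 44.7 CPM in the 4 groups in the order above, so whole-gene counts cannot check the deletion. WT mesoderm library 1 stood apart, at -21.0 on the first principal component against -45.0 and -39.7 for the other WT mesoderm libraries. Without it, 354 genes were called for the difference in place of 163, and 159 of the 163 were among them. Without arid4b∆ mesoderm library 2 the number was 104, and without WT endoderm library 2 it was 105.

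The genotype effect differed between the lineages for 163 of 11635 tested genes (1.4%; edgeR quasi-likelihood test, adjusted p under 0.05). In endoderm alone 1478 genes were called (12.7%; 673 higher in arid4b∆, 5.78%, and 805 lower, 6.92%), and in mesoderm 2224 (19.1%; 1044 higher, 8.97%, and 1180 lower, 10.1%). Of the 163, the effect was more positive in endoderm for 73 (0.627%) and more negative for 90 (0.774%). They divided into 20 genes with opposite effects, 43 called in endoderm but not mesoderm, 67 called in mesoderm but not endoderm, 32 called in both with like sign, and Abhd4, called in neither (0.32 in endoderm, -0.32 in mesoderm, log2). Whether libraries of a group stem from different cultures is not said in the labels, and the p-values reflect only library-to-library spread, which may be technical.

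**Figure D1:**
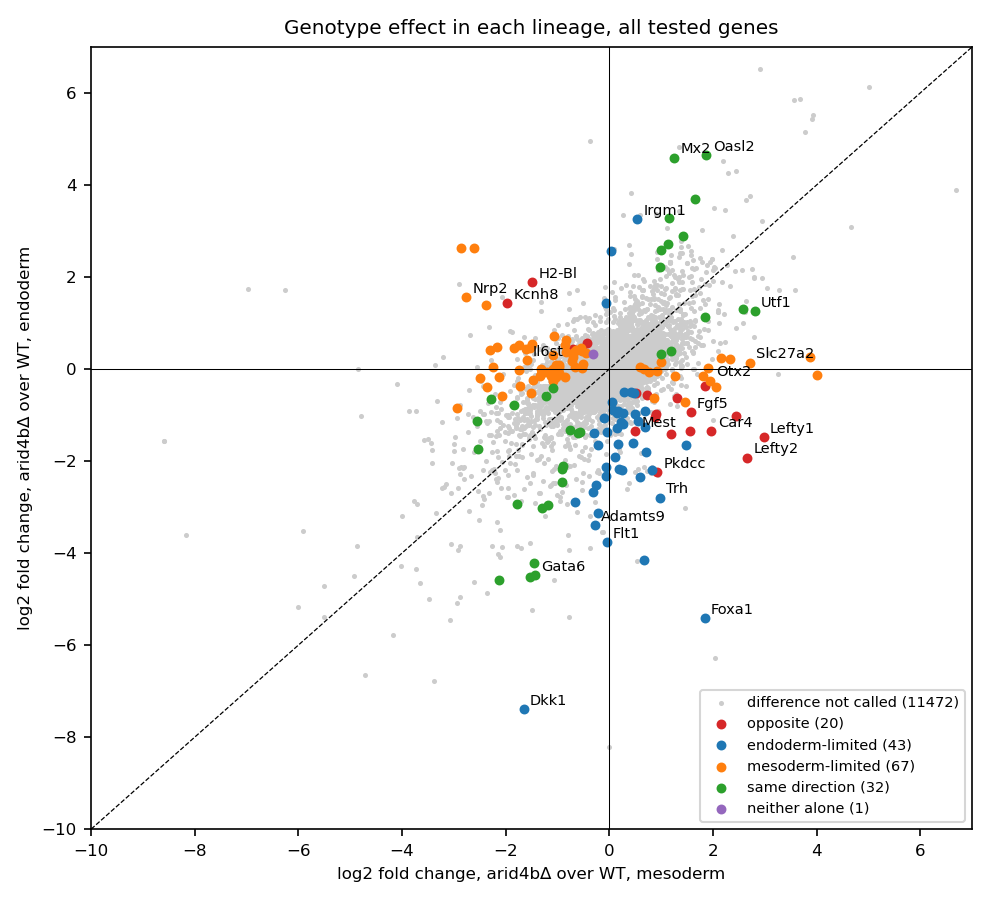
Log2 fold change of arid4b∆ over WT in mesoderm (x axis) and endoderm (y axis) for the 11635 tested genes, 1 point a gene, with the 163 genes called for the difference coloured by class. The dashed line marks equal effects. The 20 opposite genes lie to the upper left and lower right of the zero lines, 15 of them lower in arid4b∆ endoderm and higher in arid4b∆ mesoderm.

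Opposite effects were led by the Nodal inhibitors. Lefty1 (chromosome 1, 180935022 to 180938401) was read at 81.1, 88.6 and 64.9 CPM in WT endoderm and at 32.9, 23.3 and 29.8 in arid4b∆ endoderm, but at 1.25, 2.07 and 1.18 in WT mesoderm and 12.9, 9.26 and 10.4 in arid4b∆ mesoderm. Every arid4b∆ library lay below WT in endoderm and above WT in mesoderm, and the arid4b∆ lineages lay between the WT extremes. Lefty1 was 2.78-fold lower in endoderm (-1.48 ± 0.14 SE, log2; edgeR adjusted p = 7.54e-08) and 7.9-fold higher in mesoderm (2.98 ± 0.33, adjusted p = 1.32e-06). The difference of effects was -4.46 ± 0.35 (adjusted p = 2.3e-07). Fewer cells that make a transcript and less transcript in each cell cannot be told apart in these bulk samples.

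Lefty2 (chromosome 1, 180893108 to 180899107), the close paralog, stood at 16.3, 31.8 and 17.3 CPM in WT endoderm, 5.25, 4.58 and 7.91 in arid4b∆ endoderm, 1.25, 1.03 and 2.53 in WT mesoderm and 7.29, 10.5 and 17.4 in arid4b∆ mesoderm. The groups did not overlap in either lineage, in the same 2 directions as for Lefty1. The difference was -4.59 ± 0.52 (edgeR adjusted p = 2.06e-05), and -5.22 without WT mesoderm library 3. How the counting treated reads that match both genes is not stated, and part of this likeness could be shared reads.

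Tmem63a (chromosome 1, 180942286 to 180975106), a membrane channel gene beside Lefty1, rose from 5, 7.75 and 8.1 to 16.5, 17.9 and 16.3 CPM in mesoderm and held 29.8, 35.1 and 32 against 24.8, 30.7 and 32 in endoderm. The mesoderm rise was 2.42-fold (1.27 ± 0.19, edgeR adjusted p = 7.12e-05), and no endoderm effect was called (-0.14, 95% interval -0.42 to 0.14; difference -1.42 ± 0.24). This neighbour was looked up after the values were seen.

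Among the other genes lower in arid4b∆ endoderm and higher in arid4b∆ mesoderm were members of the FGF and Wnt pathways. Fgf5 (chromosome 5, 98254184 to 98277033), a growth factor of the post-implantation epiblast, was at 106, 103 and 104 CPM in WT endoderm, 46.9, 54.5 and 61.7 in arid4b∆ endoderm, 18.5, 9.82 and 4.72 in WT mesoderm and 33.6, 36.1 and 24.4 in arid4b∆ mesoderm. The difference was -2.50 ± 0.33 (edgeR adjusted p = 0.000132). It was -3.28 without WT mesoderm library 1, whose level was the highest of its group. The endoderm fall was not called by DESeq2 (adjusted p = 0.11). Sfrp1 (chromosome 8, 23411383 to 23449632), a secreted Wnt inhibitor, went from 30.1, 49 and 30.6 to 13.1, 14.3 and 14.6 CPM in endoderm and from 3.75, 5.68 and 4.56 to 11.2, 10.2 and 9.63 in mesoderm. It was 2.65-fold lower in endoderm and 2.3-fold higher in mesoderm (difference -2.61 ± 0.32, adjusted p = 4.69e-05).

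Car4 and Pkdcc had the largest differences among the rest of this group that passed the abundance limit for naming. Car4 (chromosome 11, 84957754 to 84966054), a membrane carbonic anhydrase, was at 36.5, 67.1 and 36.8 CPM in WT endoderm, 11.7, 26 and 16.8 in arid4b∆ endoderm, 4.5, 4.13 and 2.19 in WT mesoderm and 13.7, 15.7 and 10.2 in arid4b∆ mesoderm. The genotypes did not overlap in either lineage (difference -3.32 ± 0.47, edgeR adjusted p = 0.000271). Pkdcc (chromosome 17, 83215283 to 83225069), a secreted kinase, fell from 50.2, 44.2 and 40.2 to 10.8, 8.32 and 9.74 CPM in endoderm and rose from 2.75, 4.13 and 3.38 to 7.85, 6.48 and 4.55 in mesoderm. Its difference was -3.16 ± 0.32 (adjusted p = 4.05e-06), but the mesoderm rise of 1.89-fold was lost with DESeq2 (adjusted p = 0.0518), with limma-voom (adjusted p = 0.0543), and on leaving out WT mesoderm library 1 or 3 or arid4b∆ mesoderm library 1 or 2.

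Mest (difference -1.86, log2) and Dhrs3 (-2.90) were named through their lists, of imprinted and retinoic acid genes. The other genes of this direction described here fell outside the naming rule and were chosen after their values were seen. They are Shisa3 (difference -3.47), Fzd8 (-1.94), Gpc4 (-1.92), Lrig3 (-1.87), Pmepa1 (-1.28) and Sipa1l2 (-1.03), all log2. Fzd8 is a Wnt receptor, Gpc4 a cell surface proteoglycan, Dhrs3 a retinaldehyde reductase, and Pmepa1 an inhibitor of TGF-beta signalling. Mest, an imprinted gene, was at 139, 180 and 137 CPM in WT endoderm, 56.8, 59.8 and 62.5 in arid4b∆ endoderm, 44.5, 40.8 and 37.8 in WT mesoderm and 58.9, 56.2 and 58.9 in arid4b∆ mesoderm. The 6 arid4b∆ libraries of both lineages thus lay close together, between the WT levels. Copg2, which overlaps Mest, fell in endoderm (-0.89 ± 0.10) with little change in mesoderm (0.08 ± 0.12), and reads from the overlap could count for both genes.

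The 5 genes of the reverse direction, higher in arid4b∆ endoderm and lower in arid4b∆ mesoderm, had smaller effects where they were well counted. Ephb4 (chromosome 5, 137350109 to 137374522), an ephrin receptor of developing vessels, was at 26, 21 and 29.8 CPM in WT endoderm, 32.6, 35.3 and 33.1 in arid4b∆ endoderm, 44.5, 45 and 48.1 in WT mesoderm and 27.2, 30.6 and 27.3 in arid4b∆ mesoderm. It was 1.34-fold higher in endoderm and 1.63-fold lower in mesoderm (difference 1.13 ± 0.18, edgeR adjusted p = 0.00094). Gli3, a transcription factor of the Hedgehog pathway, differed by 1.00 ± 0.18 and Grik3, a glutamate receptor subunit, by 0.94 ± 0.17. The WT and arid4b∆ libraries of Gli3 overlapped in mesoderm and those of Grik3 in endoderm. The other members of this group, Kcnh8 (difference 3.40) and H2-Bl (3.38), averaged under 8 CPM in each group and were named after their values were seen. H2-Bl belongs to the class I histocompatibility genes, whose members are alike in sequence, and its call for the difference was lost without WT endoderm library 2 (adjusted p = 0.0589) and without arid4b∆ endoderm library 3 (adjusted p = 0.0543). Kcnh8 had a difference of 4.08 without arid4b∆ mesoderm library 1.

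Of the 20 opposite genes, 19 kept the call for the difference in every 1 of 18 alternative analyses, the exception being H2-Bl. The opposite class also needs a call in each lineage, and 8 genes kept it in all 18: Car4, Lefty1, Lefty2, Lrig3, Mest, Pmepa1, Sfrp1 and Sipa1l2. Fgf5 kept it in 17, Gpc4 and Kcnh8 in 16, Dhrs3 in 15, Gli3 in 14, Ephb4, Fzd8 and Shisa3 in 13, and Grik3 and Pkdcc in 12. H2-Bl kept it in 9, with its endoderm call lost by DESeq2 (adjusted p = 0.0787) and limma-voom (adjusted p = 0.0664). The endoderm calls of Ephb4, Fzd8, Shisa3 and Grik3 were also lost with DESeq2. All 20 genes that were called in both lineages with unlike sign were also called for the difference, while 816 of the 868 genes called in both lineages were not. Effects of unlike sign add up in the difference and those of like sign subtract, so these counts follow largely from its definition.

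**Figure D2:**
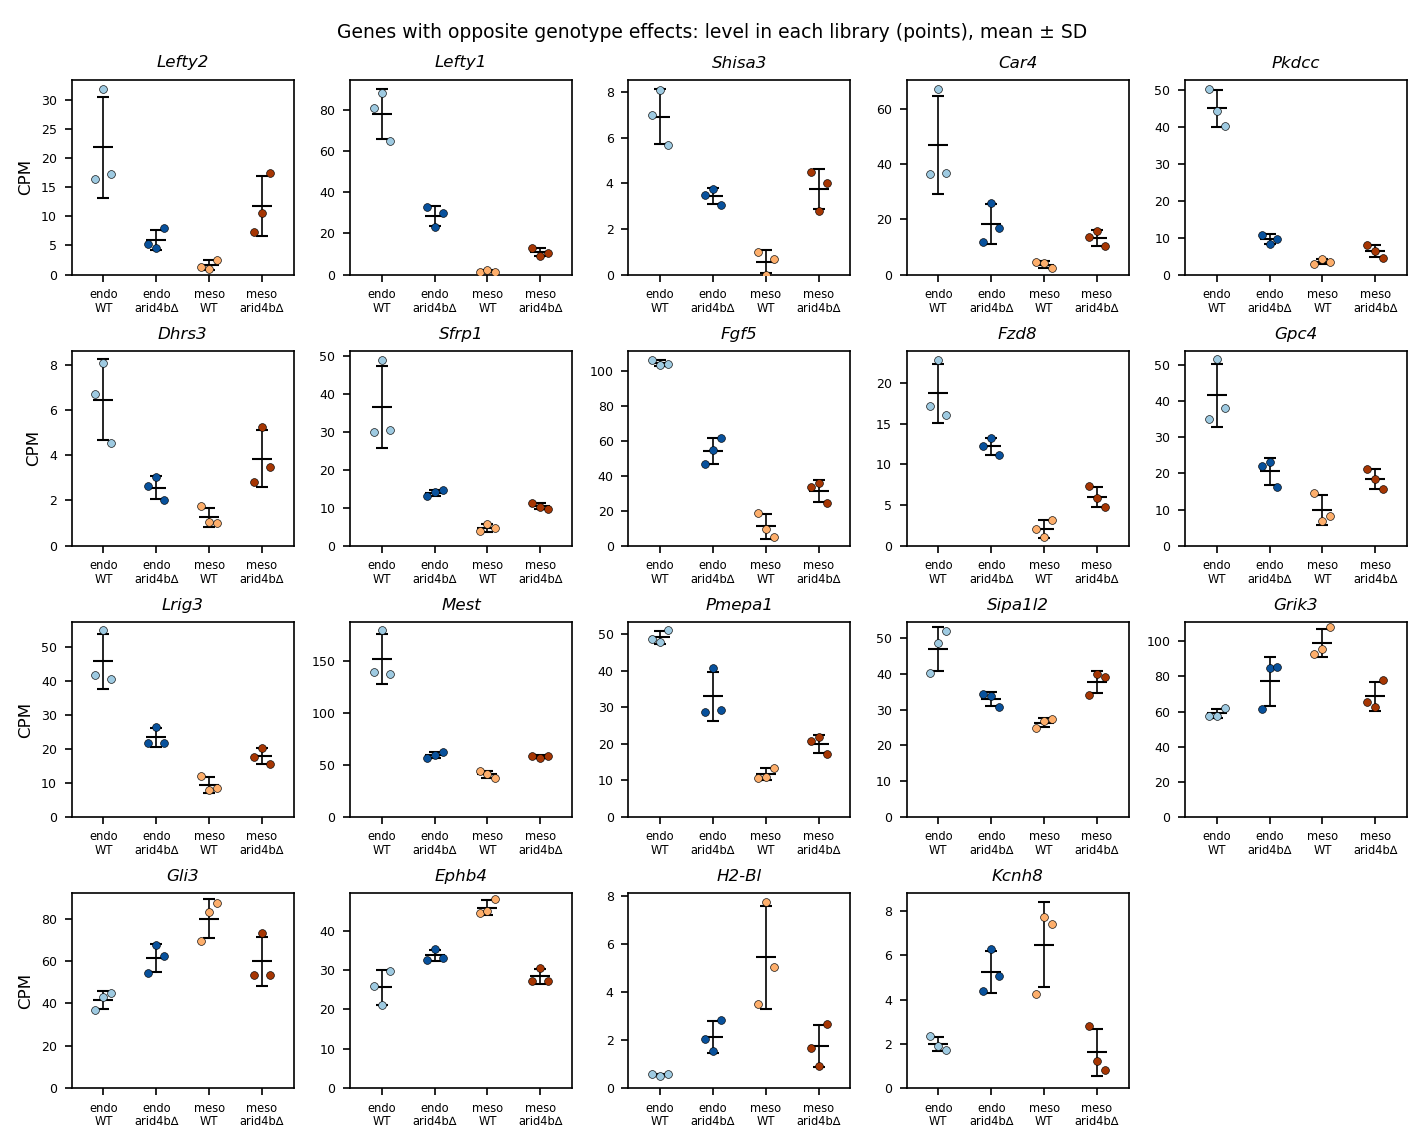
Level (CPM, y axis, from 0) of 19 of the 20 opposite genes in each of the 12 libraries (points), with group mean ± SD (n = 3). Blue marks endoderm and orange mesoderm, with arid4b∆ darker. In the first 14 panels, from Lefty2 to Sipa1l2, WT endoderm is the highest group and WT mesoderm the lowest, and both arid4b∆ groups lie between them.

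Effects called in endoderm and not in mesoderm were lower in arid4b∆ for 353 and higher for 257 of 610 genes. Of the 43 also called for the difference, 40 were lower in arid4b∆ endoderm and 3 were higher. In mesoderm, Foxa1 was at the count floor (no genotype above an average of 3 counts a library) and 42 genes were measured. For 28 of the 42 the 95% interval of the mesoderm effect lay within 2-fold either way, and for 14 it was wider, so a mesoderm effect of over 2-fold was within the error of those genes. Flt1 (chromosome 5, 147561604 to 147726438), a VEGF receptor, fell from 58.1, 72.6 and 53.3 CPM to 6.12, 3.4 and 4.67 in endoderm and stood at 8.01, 7.24 and 6.92 in WT and 10.7, 5.86 and 4.82 in arid4b∆ mesoderm. The fall was 13.6-fold in endoderm, and the mesoderm effect was -0.05 with an interval of -0.63 to 0.53 (difference -3.71 ± 0.37, edgeR adjusted p = 3.57e-06). Adamts9 (chromosome 6, 92772699 to 92944450), a secreted protease, showed the same form: 84.9, 105 and 80.5 CPM fell to 9.62, 8.66 and 7.91 in endoderm, while mesoderm held 9.76, 7.75 and 6.41 in WT and 7.01, 4.94 and 7.22 in arid4b∆.

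Lifr and Tdgf1 differed from these in that every mesoderm library of both genotypes lay above every arid4b∆ endoderm library. Lifr (chromosome 15, 7090610 to 7197489), a receptor chain for leukaemia inhibitory factor, was at 17.2, 19.3 and 18.1 CPM in WT endoderm and 7, 2.89 and 3.04 in arid4b∆ endoderm, with 21, 12.9 and 18.1 in WT and 18.2, 23.4 and 21.9 in arid4b∆ mesoderm. Only the arid4b∆ endoderm group was low (difference -2.43 ± 0.32, edgeR adjusted p = 0.000132). Tdgf1 (chromosome 9, 110939608 to 110946158), the Nodal co-receptor Cripto, fell from 170, 218 and 196 to 39.4, 29 and 49.9 CPM in endoderm and held 89.6, 86.3 and 98 against 59.7, 91 and 113 in mesoderm. Its endoderm fall was 4.99-fold and its mesoderm effect -0.06 (95% interval -0.43 to 0.30), with a difference of -2.25 ± 0.25 (adjusted p = 1.49e-05).

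Nodal itself, the ligand of that co-receptor, fell in endoderm (-1.07 ± 0.17) and not in mesoderm (-0.10, interval -0.45 to 0.25), but the difference of -0.97 ± 0.24 was close to the threshold (edgeR adjusted p = 0.0416). That call was lost in 9 of 18 alternatives, with limma-voom (adjusted p = 0.0527) and in 8 that left out 1 library (WT endoderm 1 and 3, arid4b∆ endoderm 1 and 2, WT mesoderm 2 and 3, arid4b∆ mesoderm 2 and 3). Jag1, a Notch ligand, fell 3.11-fold in endoderm and had a mesoderm effect of 0.16 (interval -0.25 to 0.57; difference -1.80 ± 0.26). Atp8a1, a phospholipid flippase beside Shisa3 on chromosome 5, fell 4.52-fold in endoderm (difference -2.36 ± 0.32). Trh, thyrotropin-releasing hormone, fell 6.94-fold in endoderm from 152, 278 and 124 to 13.4, 36.3 and 27.6 CPM. In mesoderm Trh was at 15.5, 9.3 and 11 in WT and 22.7, 25 and 24.6 in arid4b∆, groups that did not overlap although the rise was not called (0.98 ± 0.36, adjusted p = 0.0653).

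Called for the difference were 3 genes that rose in endoderm with no mesoderm call. Nrk, an X-linked kinase, went from 1.46, 0.86 and 1.42 to 6.7, 7.3 and 7.3 CPM in endoderm. Its mesoderm levels were 5, 6.2 and 11 in WT and 8.69, 7.41 and 8.03 in arid4b∆. Adam22, a synaptic adhesion protein, rose 2.7-fold in endoderm with a mesoderm effect of -0.07 (95% interval -0.50 to 0.36). In both, arid4b∆ endoderm reached a level near that of mesoderm. The third, Irgm1, is described with the interferon-inducible genes below.

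Effects called in mesoderm and not in endoderm were lower in arid4b∆ for 738 and higher for 618 of 1356 genes. The 67 also called for the difference held 50 falls and 17 rises. In endoderm, Raet1a and Raet1b were at the floor and 65 were measured, 47 of them with an endoderm interval within 2-fold and 18 wider. The rises included some regulators of the epiblast and of neural fate, beside genes of other kinds. Otx2 (chromosome 14, 48656781 to 48667644), a homeobox factor of the epiblast and forebrain, was at 102, 120 and 93.2 CPM in WT endoderm and 78.4, 90.5 and 96 in arid4b∆ endoderm, and went from 25.8, 12.9 and 13.7 in WT mesoderm to 78.8, 66 and 60.5 in arid4b∆ mesoderm. It rose 3.85-fold in mesoderm, to near the endoderm range, and the endoderm effect was -0.25 (95% interval -0.54 to 0.04; difference -2.20 ± 0.23, edgeR adjusted p = 8.76e-06).

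Slc27a2 (chromosome 2, 126553024 to 126588243), a fatty acid transporter, rose from 8.51, 2.58 and 2.7 to 40.1, 28.1 and 24.6 CPM in mesoderm and held 33.3, 44.7 and 37.7 against 37, 42.6 and 48.5 in endoderm. The mesoderm rise was 6.58-fold (difference -2.58 ± 0.35, edgeR adjusted p = 0.000188; -3.38 without WT mesoderm library 1). Irs4, an insulin receptor substrate on the X chromosome, rose 4.18-fold in mesoderm (difference -2.46 ± 0.44). Egr1, an immediate early transcription factor, rose 4.99-fold from 2.75, 2.58 and 2.36 to 19.6, 9.26 and 9.37 CPM. Its difference of -2.09 ± 0.44 (adjusted p = 0.0132) was lost without WT endoderm library 2 (adjusted p = 0.0606) and without WT mesoderm library 3 (adjusted p = 0.0595). Foxd3 (difference -1.91 ± 0.37), a pluripotency and neural crest factor, and Zic2 (-0.84 ± 0.18), a zinc finger factor of the neural plate, also rose in mesoderm with no endoderm call and were named after their values were seen.

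The mesoderm falls included part of a cytokine receptor. Il6st (chromosome 13, 112464070 to 112506860), the gp130 chain that pairs with Lifr, was at 44.5, 61.5 and 84.5 CPM in WT mesoderm and 24.4, 20.7 and 19 in arid4b∆ mesoderm, with 12.3, 16 and 12.5 against 18.9, 15.6 and 13.6 in endoderm. It fell 3.02-fold in mesoderm and its endoderm effect was 0.19 (interval -0.28 to 0.66; difference 1.79 ± 0.30, edgeR adjusted p = 0.00151). The 2 chains of the leukaemia inhibitory factor receptor were thus called in different lineages, Lifr in endoderm and Il6st in mesoderm, each with a call for the difference. Fah, an enzyme of tyrosine breakdown, fell 4.35-fold in mesoderm from 19.5, 22.2 and 34.9 to 2.8, 7.1 and 8.29 CPM (difference 1.94 ± 0.40). Lef1, a nuclear effector of Wnt signalling, fell 2.5-fold in mesoderm from 37.5, 41.3 and 51.6 to 20.2, 14.2 and 18.2 CPM, with an endoderm effect of -0.11. The Lef1 difference of 1.21 ± 0.26 (adjusted p = 0.014) was lost without WT endoderm library 2, arid4b∆ endoderm library 3 or arid4b∆ mesoderm library 2 (adjusted p = 0.0633, 0.0541 and 0.055).

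Rgs17 (difference 2.30 ± 0.51) and S100a11 (2.27 ± 0.52) had larger mesoderm falls of 5.64-fold and 4.72-fold but were sparsely counted in endoderm, at 2.06 to 6.23 CPM and 2.58 to 4.53 CPM over the 6 libraries. The Rgs17 call was lost on leaving out arid4b∆ endoderm library 3, WT mesoderm library 3 or arid4b∆ mesoderm library 2 or 3, with edgeR adjusted p from 0.061 to 0.0762. The S100a11 call was lost with limma-voom (adjusted p = 0.12) and on leaving out any 1 of 6 libraries (WT endoderm 1 or 2, arid4b∆ endoderm 2 or 3, WT mesoderm 3, arid4b∆ mesoderm 2; highest adjusted p = 0.11). Nrp2, a semaphorin and VEGF receptor named after its values were seen, fell 6.77-fold in mesoderm from 24, 51.7 and 56.2 to 9.81, 4.63 and 4.82 CPM. Its endoderm effect was poorly bounded, at 1.57 with an interval of 0.25 to 2.89.

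Most interferon-inducible genes rose in both lineages, and those called for the difference rose more in endoderm. These genes answer to interferons through transcription factors that bind the interferon-stimulated response element (ISRE) or the gamma-activated site (GAS). Of 32 tested genes on a list of them, 29 rose in endoderm and 25 in mesoderm, where 5.78% and 8.97% of all tested genes rose. In each lineage 1 fell, beside 6.92% of all tested genes in endoderm and 10.1% in mesoderm. The difference was called for 5 of the 32 (15.6%, beside 1.4% of all tested genes), all more positive in endoderm. The median difference was 1.243 beside -0.001 over all tested genes. The list's summed level was 136.9 to 148.8 CPM in WT endoderm and 229.2 to 340.9 in WT mesoderm, against 607.4 to 720.8 and 634.5 to 708.9 in arid4b∆ endoderm and mesoderm. The WT lineages did not overlap in this sum and the arid4b∆ lineages did.

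Irgm1, Igtp and Irgm2, which are not on that list, belong to the family of interferon-inducible GTPases that act against intracellular pathogens, and the 250 bases before their start sites are shown because they hold matches to these elements. They are the 3 with an ISRE core among 8 interferon-inducible genes looked up with a promoter entry. The 8 were the list genes called for the difference that had an entry, and Irgm1, Igtp, Irgm2 and Parp12, added by hand from outside the list. The windows of Igtp and Irgm2 are alike in much of their sequence, so the 3 are not a measure of how common the element is. The windows of Ddx58, Oasl2, Parp12 and Ifitm3 hold neither element and that of Eif2ak2 holds GAS only. Sequences are from RefSeq on GRCm38.p6, 5′ to 3′ on the strand of the gene, and capitals mark matches to the ISRE core (GAAA, any 2 bases, then GAAA) or to GAS (TTCNNNGAA), searched on both strands. Irgm1 lies at chr11:48871421-48871670 (minus strand), with 2 overlapping ISRE matches, Igtp at chr11:58199306-58199555 (plus) and Irgm2 at chr11:58214727-58214976 (plus), each with 1 match to ISRE and 1 to GAS.
Irgm1: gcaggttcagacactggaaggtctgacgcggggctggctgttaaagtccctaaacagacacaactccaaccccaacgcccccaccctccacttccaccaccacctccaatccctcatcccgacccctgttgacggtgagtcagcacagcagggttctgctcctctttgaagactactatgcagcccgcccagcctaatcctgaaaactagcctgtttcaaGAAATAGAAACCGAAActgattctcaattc
Igtp: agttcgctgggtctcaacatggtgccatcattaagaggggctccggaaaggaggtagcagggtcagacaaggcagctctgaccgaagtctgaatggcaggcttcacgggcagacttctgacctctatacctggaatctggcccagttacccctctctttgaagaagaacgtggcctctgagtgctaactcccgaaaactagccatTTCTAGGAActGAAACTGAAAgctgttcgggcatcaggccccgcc
Irgm2: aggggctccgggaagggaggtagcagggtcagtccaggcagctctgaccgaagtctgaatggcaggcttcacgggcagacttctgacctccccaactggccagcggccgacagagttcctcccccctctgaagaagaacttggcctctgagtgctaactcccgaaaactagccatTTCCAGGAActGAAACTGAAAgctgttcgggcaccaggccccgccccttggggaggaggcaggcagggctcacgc
The ISRE core was present in 2.98% of 32851 such windows and GAS in 7.02%. On the interferon list the ISRE core was present in 9 of 24 genes with an entry. A match is a string of letters and was not tested for binding.

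Irgm1 (chromosome 11, 48865245 to 48871420) was at 5.25, 6.02 and 7.08 CPM in WT endoderm, 68.5, 50.8 and 58.4 in arid4b∆ endoderm, 23.3, 43.4 and 50.5 in WT mesoderm and 48, 67.3 and 56.2 in arid4b∆ mesoderm. Only WT endoderm was low, and the mesoderm groups overlapped. The rise was 9.56-fold in endoderm (3.26 ± 0.25, edgeR adjusted p = 4.15e-09) and was not called in mesoderm (0.54, 95% interval 0.14 to 0.93, adjusted p = 0.0521). The difference was 2.72 ± 0.32 (adjusted p = 3.02e-05). Igtp (difference 1.59 ± 0.36) and Irgm2 (1.46 ± 0.33), neighbours on the same chromosome, rose in both lineages and were named after their values were seen. Their calls for the difference held in 11 and 14 of 18 alternatives.

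Ifitm3 (chromosome 7, 141009590 to 141010744), a membrane protein that blocks virus entry, rose from 7, 4.99 and 7.65 to 59.5, 66.6 and 58.6 CPM in endoderm and from 20.3, 26.9 and 27.2 to 46, 56.2 and 62.4 in mesoderm. The rise was 9.73-fold in endoderm and 2.22-fold in mesoderm (difference 2.13 ± 0.23, edgeR adjusted p = 1.14e-05). Ddx58, the RNA sensor RIG-I, rose 13-fold and 3.14-fold (difference 2.04 ± 0.36, adjusted p = 0.00265). The arid4b∆ levels of both genes overlapped between the lineages, while WT mesoderm lay above WT endoderm in every library.

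Oasl2 and Mx2, an oligoadenylate synthetase relative and an antiviral GTPase, rested on WT mesoderm library 3. Mx2 was at 0.292, 0.516 and 0.567 CPM in WT endoderm, 11.7, 11.9 and 12.6 in arid4b∆ endoderm, 1, 1.03 and 7.09 in WT mesoderm and 10.4, 9.26 and 7.76 in arid4b∆ mesoderm. Without that library the Mx2 difference went from 3.35 to 1.46 (edgeR adjusted p = 0.644) and the Oasl2 difference from 2.77 to 1.73 (adjusted p = 0.173), while the endoderm and mesoderm rises of both remained called. The Mx2 call was also lost with limma-voom (adjusted p = 0.138) and without WT endoderm library 1, 2 or 3 or arid4b∆ mesoderm library 2, and the Oasl2 call with limma-voom (adjusted p = 0.0677) and without WT endoderm library 1 or 2. Without WT endoderm library 3 the Oasl2 difference was 3.45.

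Markers of fibroblasts or feeder cells rose more often than all tested genes in endoderm, and in mesoderm about as often. Of 17 tested, 7 rose in endoderm, beside 5.78% of all tested genes. In mesoderm 2 rose and 1 fell, beside 8.97% and 10.1% of all tested genes, and none was called for the difference (median 0.703). Their summed level was 70.5 to 161.4 CPM in WT endoderm, 147.7 to 451.2 in arid4b∆ endoderm, 103.4 to 247.2 in WT mesoderm and 191.6 to 453.7 in arid4b∆ mesoderm. The groups overlapped in both lineages, and the part of such cells in the interferon result was not tested.

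**Figure D3:**
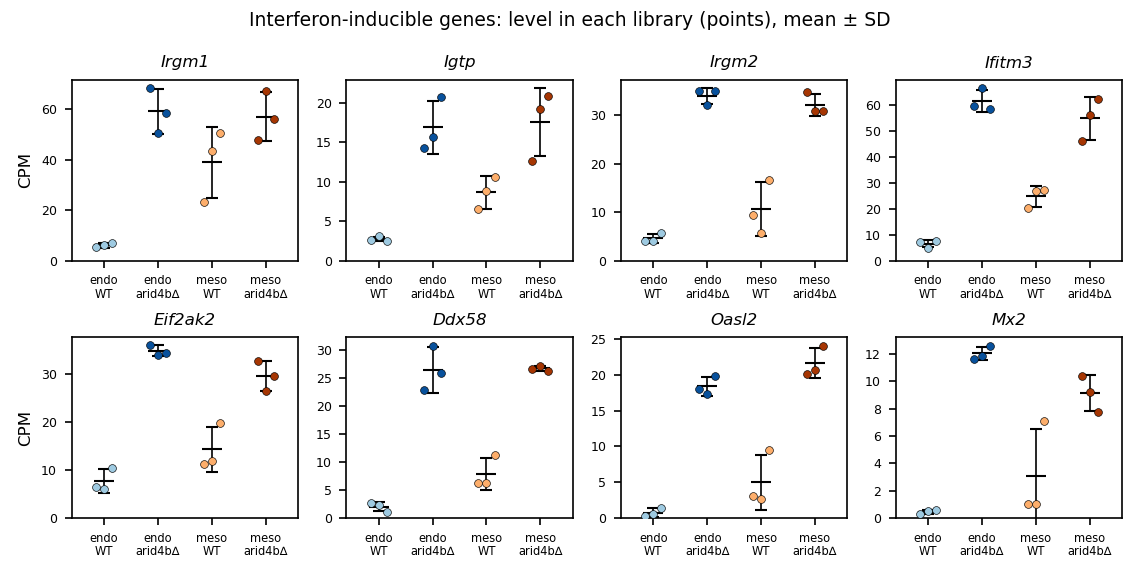
Level (CPM, y axis, from 0) of 8 interferon-inducible genes called for the difference in each library (points), with group mean ± SD (n = 3). In all 8 panels WT endoderm is the lowest group by its mean. For Mx2 and Oasl2, 1 WT mesoderm library, number 3, lies apart from the other 2.

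The other genes called in both lineages with like sign included regulators of endoderm that fell more in endoderm. Gata6 (chromosome 18, 11052510 to 11085636), an endoderm transcription factor, fell from 18.4, 27 and 21.8 to 2.04, 0.849 and 0.406 CPM in endoderm and from 2.25, 2.58 and 2.87 to 1.12, 0.617 and 1.07 in mesoderm. The arid4b∆ mesoderm libraries were near the level that 3 counts give there (0.803 to 0.926 CPM). The mesoderm call (edgeR adjusted p = 0.0457) was lost in 9 of 18 alternatives, DESeq2 (adjusted p = 0.0883) and limma-voom (adjusted p = 0.104) among them. The difference of -3.05 ± 0.71 (edgeR adjusted p = 0.0311) was lost without WT endoderm 2, arid4b∆ endoderm 2 or 3, or any 1 of the 3 arid4b∆ mesoderm libraries. It was -3.64 without arid4b∆ endoderm library 1. Ntn1, a guidance cue (difference -2.99 ± 0.63), Sema6d, a semaphorin (-2.77 ± 0.62), and Upp1, uridine phosphorylase (-2.47 ± 0.61), fell in the same way from 19.8 CPM or more in WT endoderm. The Ntn1 call was lost without arid4b∆ mesoderm library 1 (-2.27, adjusted p = 0.242), the Sema6d call in 5 alternatives that left out 1 library (WT endoderm 2, arid4b∆ endoderm 2 and 3, arid4b∆ mesoderm 1 and 2) and the Upp1 call in 10, limma-voom (adjusted p = 0.078) and every library left out in turn but WT endoderm 1, WT mesoderm 1 and WT mesoderm 2.

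Eomes (chromosome 9, 118478186 to 118486132), a T-box factor at the head of the endoderm and mesoderm programmes, was better counted. It fell from 112, 127 and 119 to 12.2, 15.4 and 18.5 CPM in endoderm and from 53.3, 60 and 61.4 to 12.1, 16.7 and 21.7 in mesoderm. The arid4b∆ libraries of the lineages overlapped, and the difference of -1.15 ± 0.22 (edgeR adjusted p = 0.00699) was lost only without arid4b∆ mesoderm library 3 (adjusted p = 0.0618). Utf1, a chromatin factor of pluripotent cells, rose in both, from 52.2, 52.5 and 42.2 to 111, 121 and 122 CPM in endoderm and from 23, 8.79 and 11.1 to 112, 106 and 93.7 in mesoderm. Its rise was 2.41-fold in endoderm and 6.99-fold in mesoderm (difference -1.54 ± 0.24, adjusted p = 0.00101).

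Most genes called in 1 lineage alone were not called for the difference between lineages. Of 610 genes called only in endoderm, 16 were at the floor in mesoderm, all lower in arid4b∆ endoderm, and 594 were measured there. The difference was called for 42 of the 594 (7.07%) and not for 552. Of 1356 called only in mesoderm, 20 were at the floor in endoderm, 1 higher and 19 lower in arid4b∆ mesoderm. The difference was called for 65 of the 1336 measured (4.87%) and not for 1271. Over all tested genes 1.4% were called for the difference. Where the difference was not called, it is not shown to be absent. With the floor set at 1 count in place of 3, 4 and 3 genes were at the floor of the other lineage, and with 10 counts 78 and 85.

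The genes at the floor include known markers, for which a genotype effect could be read in 1 lineage only. Cer1 (chromosome 4, 82881751 to 82885151), a secreted protein that blocks Nodal and BMP ligands, held 187, 573 and 211 counts in WT endoderm, 1, 2 and 0 in arid4b∆ endoderm and 0 in all 6 mesoderm libraries. The ratio in endoderm was 361.1 (95% counting interval 123.2 to 1754), and no mesoderm effect can be given. Foxa2 held 326 counts over WT endoderm and 8 over arid4b∆ endoderm, and 8 and 4 over the mesoderm groups. Its difference was -4.61 ± 1.28 and was not called (edgeR adjusted p = 0.0884). Rgs8, a regulator of G protein signalling, held 100 counts in WT endoderm, 1 in arid4b∆ endoderm and 1 over the 6 mesoderm libraries. Foxa1, a forkhead factor of the gut, held 95 and 2 counts in endoderm and 1 and 4 in mesoderm. It was the only 1 of the 16 called for the difference (-7.25 ± 1.59, adjusted p = 0.0189), and the call rests on those 5 mesoderm counts. It was lost without arid4b∆ mesoderm library 1 (adjusted p = 0.149) or 2 (adjusted p = 0.0593), and the value ranged from -9.78 without arid4b∆ endoderm library 1 to -6.56 without arid4b∆ endoderm library 2.

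In endoderm the floor held Cdx2 (chromosome 5, 147300900 to 147307249), a posterior and trophoblast homeobox factor, with 0 counts in WT and 1 in arid4b∆, against 196 and 1 in mesoderm (ratio 174.3, 95% counting interval 30.92 to 6919). Sprr2a1 and Sprr2a2, cornified envelope genes, had identical counts in all 12 libraries, so their reads could not be told apart. They held 1101 counts in WT mesoderm, 2 in arid4b∆ mesoderm, and 6 and 2 in endoderm. Sprr2a3 held 126 and 1 in mesoderm and 0 and 1 in endoderm. None of these 4 was called for the difference (edgeR adjusted p = 0.305 for Cdx2 and 0.698 for Sprr2a1). Raet1a and Raet1b, near-identical ligands of a natural killer cell receptor, were called (differences 5.25 ± 1.23 and 5.49 ± 1.25) with 1 and 9 endoderm counts each, of which 5 came from arid4b∆ endoderm library 1. These calls held in 10 and 12 of 18 alternatives.

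Several central markers fell in both lineages without a called difference. T fell by 5.40 in endoderm and by 5.51 in mesoderm on the log2 scale (difference 0.11 ± 1.21, 95% interval -2.39 to 2.62). Mixl1, a homeobox gene of the streak, fell by 4.35 and by 3.73 (difference -0.61 ± 0.69). Their intervals are wide because arid4b∆ levels were low, so equal effects are not shown. Sox17, an endoderm factor, had a difference of -3.52 ± 1.24 (edgeR adjusted p = 0.222) with WT mesoderm at 0.5, 0 and 1.35 CPM. Pou5f1, the pluripotency factor Oct4, was called in neither lineage, and its difference of -0.10 had an interval of -0.39 to 0.20. The rest of the panel, Mesp1, Gsc, Lhx1, Gata4, Cxcr4, Kdr, Pdgfra, Nanog and Sox2, was not called for the difference either. Nanog came nearest (-0.67 ± 0.19, adjusted p = 0.0998).

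Grouped by pathway, the called genes were most numerous on the lists of definitive endoderm and FGF-ERK genes (6 each), followed by the Nodal, primed and general pluripotency, and interferon lists (5 each). Each list is read against the 1.4% of all tested genes called and their median difference of -0.001, and lists share members. Of 17 tested definitive endoderm genes 6 were called, all more negative in endoderm (Foxa1, Trh, Otx2, Gata6, Dkk1 and Hhex, median -2.916). Otx2 rose in mesoderm and had no called effect in endoderm, whereas the other 5 fell in endoderm. Of the 17 genes, 4 were at the floor in mesoderm, Foxa1 among them. The median of this list therefore includes genes whose mesoderm effect could not be read. Of 19 Nodal and Activin genes 5 were called, all more negative (Lefty1, Lefty2, Tdgf1, Eomes and Nodal, median -0.91), and 2 of the 19 were at the floor in mesoderm. Receptors of the pathway (Acvr2a, Acvr2b and Acvr1b) were not called. Of 18 FGF-ERK genes 6 were called, 5 more negative (Fgf5, Il17rd, Egr1, Etv4 and Etv5) and Fgfr1 more positive, with a median of -0.252. Etv4 (-1.49 ± 0.32) and Etv5 (-0.55 ± 0.14), ETS factors induced by FGF, rose in mesoderm with no endoderm call, while Il17rd, a feedback inhibitor of FGF signalling, fell in both lineages and more in endoderm. Of 18 genes of primed and general pluripotency 5 were called, all more negative (Fgf5, Otx2, Tdgf1, Utf1 and Zic2, median -0.357).

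Smaller numbers were called on other lists: 3 of 16 streak genes (Eomes, Nodal and Tdgf1), 3 of 20 Wnt targets (Dkk1 and Myc more negative, Lef1 more positive), 2 of 5 haemato-endothelial genes (Flt1 and Runx1), 2 of 21 imprinted genes (Mest, and Peg3 with 0.81 ± 0.20), and 1 each of 11 Notch (Jag1), 6 retinoic acid (Dhrs3), 22 amino acid stress (Slc7a3), 7 cardiac mesoderm and 14 extraembryonic endoderm genes (Gata6), 5 trophoblast (Eomes) and 6 neural genes (Otx2). None was called among 8 nascent mesoderm, 9 naive pluripotency, 15 BMP, 20 SIN3-HDAC, 15 epithelial, 12 mesenchymal transition, 12 actin, 16 ER chaperone, 18 cholesterol, 21 glycolysis, 16 p53, 23 G1-S and 25 histone genes or the 1 Hox gene tested. The histone genes rose in both lineages, 21 of 25 in endoderm and 24 of 25 in mesoderm, with a median difference of -0.142. The SIN3-HDAC subunits, partners of Arid4b, had a median difference of 0.021. Several single calls on these lists were close to the threshold and were lost on leaving out any 1 of several libraries. The number of such libraries was 9 for Myc and Peg3, 8 for Slc7a3, 7 for Runx1, 4 for Il17rd, and 3 for Dkk1 and Etv4. The highest edgeR adjusted p came without arid4b∆ mesoderm library 2 for Dkk1 (0.164) and Runx1 (0.116). It came without arid4b∆ mesoderm library 3 for Myc (0.117) and Il17rd (0.0683), and without WT mesoderm library 3 for Etv4 (0.0734) and Slc7a3 (0.223). For Peg3 it was 0.133, without arid4b∆ endoderm library 2 or arid4b∆ mesoderm library 1. Of all 18 alternatives, the call for the difference was kept in 17 for Eomes, 16 for Foxa1 and Egr1, 15 for Dkk1, Etv4 and Lef1, 14 for Il17rd and Oasl2, 12 for Gata6, Mx2 and Eif2ak2, 11 for Runx1, 9 for Nodal and Slc7a3, 8 for Hhex, Fgfr1, Myc and Peg3, and 7 for Etv5. The other listed genes called for the difference kept it in all 18.

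The same contrast can be written as the endoderm against mesoderm split in arid4b∆ minus that in WT, so the following restates the choice of genes and is given as a description. The split was called for 1145 tested genes in WT (9.84%) and 215 in arid4b∆ (1.85%). Of the 163 genes, 151 had a called split in WT and 20 in arid4b∆, and the split was smaller in arid4b∆ for 146 (89.6%; 57.8% of all tested genes). The median absolute split was 1.48 in WT and 0.276 in arid4b∆ (log2), beside 0.193 and 0.16 over all tested genes. The arid4b∆ libraries of the lineages overlapped for 102 of the 163 genes, and the WT libraries for 7. Over all 11635 tested genes the lineages overlapped for 9517 in arid4b∆ and for 8782 in WT. Overlap was thus less common among the 163 than over all tested genes in both genotypes. For Otx2 the split went from 2.57 in WT to 0.37 in arid4b∆, and for Irgm1 from -2.68 to 0.04.

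A few genes went the other way, with a lineage split in arid4b∆ that WT lacked or had in the opposite sense. Lifr was split by 0.03 in WT and -2.40 in arid4b∆ (edgeR adjusted p = 7.58e-06), and Slc39a4, a zinc transporter, by 0.23 and -1.83. Tdgf1 reversed, from 1.09 to -1.17, as did Camk1d, a calmodulin kinase, from 1.49 to -1.54, and Kcnh8, from -1.69 to 1.71. These genes were picked out for this pattern. Lefty1 kept a split of 1.37 in arid4b∆, down from 5.83 in WT, while that of Lefty2 was -0.99 and not called (adjusted p = 0.155).

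**Figure D4:**
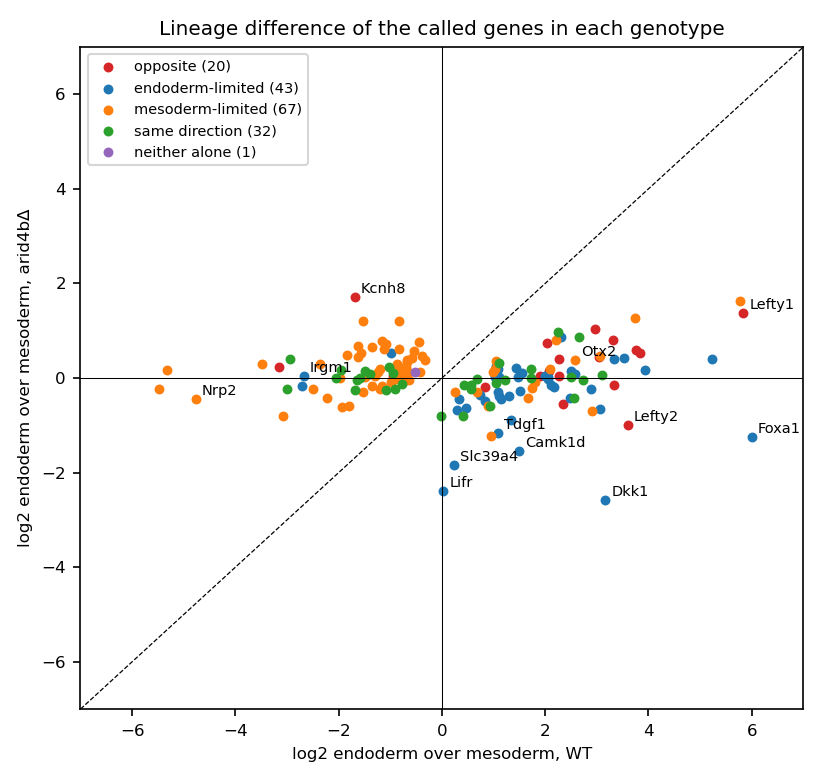
Log2 endoderm over mesoderm in WT (x axis) and in arid4b∆ (y axis) for the 163 genes called for the difference, 1 point a gene, coloured by class. The dashed line marks an equal split in both genotypes. Most points lie near 0 on the y axis, and Lifr, Slc39a4, Camk1d, Tdgf1 and Kcnh8 are among those far from it.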

How the data were processed

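Total RNA of differentiated CJ9 mouse embryonic stem cells was depleted of ribosomal RNA and sequenced in 12 libraries, per the labels' protocols. The authors deposited whole-number read counts per gene, 1 column a library. STAR, DESeq2 and mm10 appear in the submitters' processing notes; no source used here gives the counting program or its use of strand. Groups came from the sample titles.

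Rn45s was left out. For 26 genes, WT endoderm library 1 holds a date in place of a count, and these were left out; 16 were tested on the other 11 libraries, and by edgeR none was called for the difference (1 at unadjusted p under 0.05, smallest adjusted p = 0.229). The count analysis used edgeR 4.0.16 (R 4.3.3): TMM scaling, filterByExpr (minimum count 10), 11635 genes tested, 1 fit of 4 group means, the quasi-likelihood test and Benjamini-Hochberg adjustment at 0.05. The biological coefficient of variation was 9.71%. SE is the absolute log2 fold change over the square root of F. Across all genes the difference also passed at unadjusted p under 0.05 for 1206 genes. A lineage was at the floor for a gene where neither genotype averaged more than 3 counts a library (0.506 to 1.55 CPM). Counting intervals are exact 95% binomial intervals and cover counting error only, since reads carried no molecular identifiers.

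Alternatives were DESeq2 1.42.0, limma-voom (limma 3.58.1), RLE scaling, no filter, a replicate block, library sizes without Mir6236 and Lars2 (49.7% to 69.5% of counts without Rn45s), other floors, and each library left out. Scripts were tested on simulated data. Positions are RefSeq gene spans on GRCm38.p6.

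The members and the 31 gene lists were chosen with earlier results of these data known. The rule named Arid4b, a panel, the largest effects of each class with at least 5 CPM (6 for opposite effects, 4 for the others, in each direction; limited genes with an interval within 2-fold), the 4 largest folds at each floor, and up to 4 genes a list by adjusted p. Of the opposite genes, 1 is not reported here by name.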

Additional observations from a re-analysis of the deposited data

Results flagged for a closer look

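The difference of genotype effects itself passed the edgeR quasi-likelihood test (adjusted p under 0.05, over 11635 genes) for the 57 genes below, out of the 163 called. Each value is the log2 effect of arid4b∆ in endoderm minus that in mesoderm. Among genes with opposite effects they were Lefty2 (-4.59), Lefty1 (-4.46), Shisa3 (-3.47), Car4 (-3.32), Pkdcc (-3.16), Dhrs3 (-2.90), Sfrp1 (-2.61), Fgf5 (-2.50), Fzd8 (-1.94), Gpc4 (-1.92), Lrig3 (-1.87), Mest (-1.86), Pmepa1 (-1.28), Sipa1l2 (-1.03), Grik3 (0.94), Gli3 (1.00), Ephb4 (1.13), H2-Bl (3.38) and Kcnh8 (3.40). Among genes called in endoderm and not in mesoderm they were Foxa1 (-7.25), Dkk1 (-5.74), Trh (-3.77), Flt1 (-3.71), Adamts9 (-3.10), Runx1 (-2.50), Lifr (-2.43), Atp8a1 (-2.36), Tdgf1 (-2.25), Jag1 (-1.80), Myc (-1.0), Nodal (-0.97), Adam22 (1.5), Nrk (2.53) and Irgm1 (2.72). Among genes called in mesoderm and not in endoderm they were Slc27a2 (-2.58), Irs4 (-2.46), Otx2 (-2.20), Egr1 (-2.09), Etv4 (-1.49), Lef1 (1.21), Il6st (1.79), Fah (1.94), S100a11 (2.27) and Rgs17 (2.30). Among genes called in both lineages with like sign they were Gata6 (-3.05), Ntn1 (-2.99), Sema6d (-2.77), Upp1 (-2.47), Utf1 (-1.54), Slc7a3 (-1.27), Eomes (-1.15), Il17rd (-0.81), Peg3 (0.81), Ddx58 (2.04), Ifitm3 (2.13), Oasl2 (2.77) and Mx2 (3.35). With 3 libraries in a group no single library was tested as an outlier.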

How the results depend on the processing

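The sign of the difference held for all 163 genes in each of 18 alternatives (DESeq2, limma-voom, RLE scaling, no filter, replicate block, library sizes without Mir6236 and Lars2, and each of 12 libraries left out), and 74 of the 163 kept the call in all of them: 19 of 20 opposite, 23 of 43 endoderm-limited, 23 of 67 mesoderm-limited and 9 of 32 like-sign genes. DESeq2 called 12 opposite genes in place of 20. Without a filter on low counts, 377 genes were called for the difference, with 88 of like sign, 91 endoderm-limited and 158 mesoderm-limited, and 67 endoderm calls and 117 mesoderm calls fell on genes at the floor of the other lineage. With a floor of 1 count these were 4 and 3, and with 10 counts 78 and 85. With 1 library left out, the difference was called for 104 to 354 genes, the endoderm effect for 835 to 1704 and the mesoderm effect for 1480 to 2461, with 13 to 33 opposite, 12 to 77 like-sign, 33 to 66 endoderm-limited and 34 to 176 mesoderm-limited genes, and 14 to 31 endoderm and 17 to 39 mesoderm calls at the floor of the other lineage. The highest of these counts came without WT mesoderm library 1, except the floor counts (31 without WT mesoderm library 3, 39 without WT endoderm library 2). Leaving out WT mesoderm library 1 also moved the share of called genes more positive in endoderm from 44.8% to 55.1%. The share was 32.8% without WT mesoderm library 3 and 34.4% without WT endoderm library 1. With a replicate block, 255 genes were called, the 163 among them, with 61 of like sign and 105 mesoderm-limited. Replicate numbers were not taken as pairing the libraries, since only 5 of 18 same-number pairs had a correlation over 0.1 (-0.056 to 0.193, against -0.176 to 0.113 for unlike numbers). That 9 of 12 libraries correlated best with a library of their own number is a hint of pairing from the data, not the design. The cause of these changes was not tested. Depth limits genes under about 1.55 CPM, where 3 counts is the floor in the shallowest library.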

Other observations

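Neighbouring genes were looked up for all called genes, after the values were seen. Of 161 called genes with a position, 12 (7.45%) had another called gene as the next tested gene within 50 kb, and 1.11% of all positioned tested genes had a called neighbour. Besides the genes around Lefty1, the pairs were Shisa3 with Atp8a1, Mest with Copg2, Igtp with Irgm2, and Adam19 with Cyfip2. In the last pair the differences had unlike sign, -2.24 for Adam19, a membrane protease, and 1.09 for Cyfip2, a regulator of actin. Adam19 was called in endoderm and Cyfip2 in mesoderm.

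By chromosome, the share of tested genes called for the difference ranged from 0.901% on chromosome 10 to 3.16% on the X chromosome, where 13 of 412 genes were called. The X-linked genes included Gpc4, Irs4, Nrk and Slc7a3, in different classes.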
